A study of Homo sapiens with 9 samples.

Results

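The 37 genes described here encode integrins and the proteins that couple them to the actin cytoskeleton at focal adhesions, among them well known substrates of the tyrosine kinase SRC. They were taken by gene symbol from a count table of 20030 genes, and comprise 13 integrin alpha chains, 8 integrin beta chains and 16 focal adhesion proteins. RNA of MHCC97L, a human hepatocellular carcinoma (HCC) cell line, and of 2 drug-resistant lines derived from it was sequenced in 3 libraries per line. MHCC97L had received no drug. MHCC97L-Src was obtained by growing MHCC97L in rising concentrations of saracatinib, an inhibitor of SRC family kinases, until it was stably resistant at 4 μmol/L. MHCC97L-Oxa was stably resistant to oxaliplatin, a platinum compound that crosslinks DNA, at 2 μmol/L. A single resistant line per drug was sequenced, so that the drug and the derivation of its line cannot be told apart, and whether drug was present at harvest is not given in the sources used here.

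An integrin is a pair of an alpha and a beta chain that spans the membrane, binds matrix proteins such as fibronectin, collagen, laminin or vitronectin outside the cell, and recruits talin and kindlin to its tail inside. The clustered tails assemble a focal adhesion in which focal adhesion kinase (PTK2) and SRC phosphorylate the scaffolds paxillin (PXN), p130Cas (BCAR1), NEDD9 and cortactin (CTTN), while vinculin, zyxin, tensins and the ILK-parvin complex carry force to actin. In HCC these adhesions are known for their part in migration and in growth attached to matrix, and they are a classical site of SRC action.

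Totals of the gene counts ran from 16970486 to 18209213 per library, and a floor of 3 counts corresponded to 0.165 to 0.177 CPM (counts scaled to the library total). The study describes MHCC97L and MHCC97L-Src as compared in independent experiments, without saying whether these were separate cultures, and the labels do not say how the libraries of a line relate. The p-values therefore measure the spread between these libraries, which may be in part technical. MHCC97L replicate 1 stood apart from the other libraries in its relation to GC content. Across genes, the difference between its log2 CPM and the mean log2 CPM over the 9 libraries had a Spearman's rho of -0.781 with transcript GC content, against -0.255 in MHCC97L replicate 3 and 0.166 to 0.699 in the other 7 libraries. Of 11 hepatocyte and hepatoma markers, 5 (ALB, AFP, APOB, TTR and FGB) were at or under the floor in every library, whereas the epithelial keratins KRT8 and KRT18 had at least 22160 counts in each. The leukocyte markers PTPRC, CD3E and LYZ, the endothelial KDR and the fibroblast gene COL1A2 were at or under the floor in every library. By contrast, COL1A1 had 1022 to 1491 counts, and 5 of the 7 fibroblast and stellate markers were over the floor in every library. The leukocyte marker CD14 had 16 to 20 counts in MHCC97L, 97 to 104 in MHCC97L-Src and 79 to 91 in MHCC97L-Oxa. For the endothelial CDH5 this was 17 to 28, 188 to 236 and 7 to 12. Of the cholangiocyte markers, KRT7 had 12816 counts or more, SOX9 38 to 148, KRT19 at most 11 and EPCAM at most 2. The summed CPM of 4 endothelial markers was 2.22 to 2.61 in MHCC97L, 11.9 to 15.6 in MHCC97L-Src and 1.32 to 1.80 in MHCC97L-Oxa. For 7 fibroblast and stellate markers it was 154 to 233, 92.7 to 109 and 180 to 201 in the same order, for 5 leukocyte markers 1.18 to 1.70, 6.14 to 7.19 and 5.58 to 6.02, for 4 cholangiocyte markers 2103 to 3792, 736 to 949 and 1572 to 1873, and for the 11 hepatocyte and hepatoma markers 3370 to 5975, 4689 to 6378 and 2990 to 3205. The part of these marker levels in the results below was not tested.

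Read per transcript length, the adhesion set of these cells was led by few genes. On the FPKM scale (fragments per kilobase of transcript, scaled to library depth), 9 of the 37 genes were at 10 or more in every library: the alpha chains ITGA3 and ITGA5, the beta chain ITGB5, and PXN, VCL, TLN1, ZYX, ILK and CTTN. All 9 have a transcript GC content of 45% or more. The part of GC content in the order of genes by FPKM, here and below, was not tested. ITGA5, the fibronectin receptor chain, had the highest FPKM of the alpha chains in 9 of 9 libraries, with a median of 97.8 and a range of 60.7 to 182. ITGA3, a laminin receptor chain, followed with a median of 80.9 FPKM and a range of 54.0 to 122, which overlapped that of ITGA5. Among the beta chains ITGB5, a partner of alpha V in vitronectin receptors, led in 8 of 9 libraries with a median of 52.9 FPKM. In MHCC97L replicate 1 ITGB1, the shared partner of most alpha chains, was higher at 97.8 FPKM.

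Zyxin (ZYX), a LIM protein of tensed actin bundles, had the highest FPKM of the 16 focal adhesion proteins in 9 of 9 libraries (median 144). PXN (median 59.4 FPKM), TLN1 (45.8) and ILK (42.6) came next, and the range of PXN over the libraries, 48.8 to 101 FPKM, lay above that of ILK, 30.5 to 46.0 FPKM. PTK2B, the focal adhesion kinase relative also called PYK2, stood at 5.44 to 8.11 FPKM, and PTK2 at 0.824 to 1.19 FPKM in 8 libraries and 5.41 in MHCC97L replicate 1. BCAR1 was at 8.76 to 14.0 FPKM, far above its relative NEDD9 at 0.231 to 1.73. The chains ITGA4, ITGA8, ITGA9 and ITGB6 had 0 counts in all 9 libraries, which allows up to 3 counts or 0.177 CPM. ITGB7, a chain of leukocyte integrins, had at most 4 counts. Of the 37 genes, 33 had a count in at least 1 library and 30 had more than 3 counts in every library.

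**Figure D1:**
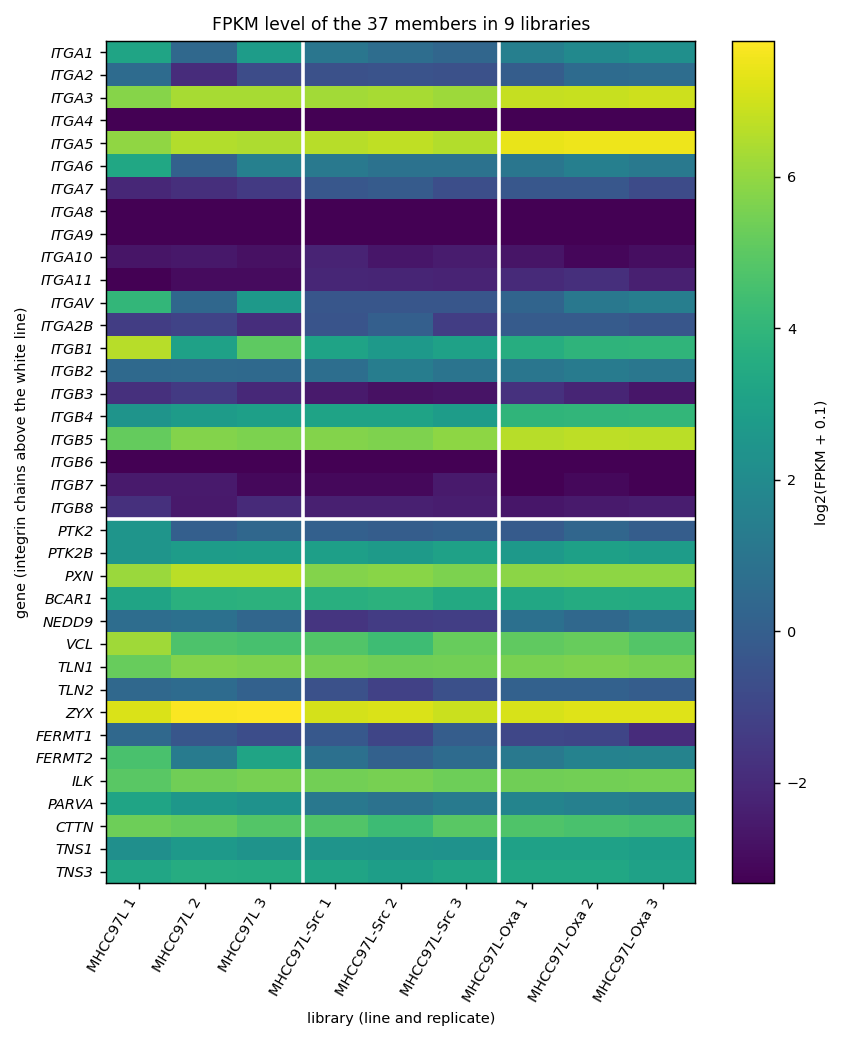
FPKM of the 37 genes (rows) in the 9 libraries (columns), coloured as log2(FPKM + 0.1), with white lines between the lines and between integrin chains and focal adhesion proteins. ITGA5, ITGA3, ITGB5, ZYX and PXN were high in every library, and ITGB1, ITGAV and FERMT2 were highest in MHCC97L replicate 1.

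Partner chains were far from equal on the FPKM scale, and these ratios are given as a description. The ratio of ITGA5 to ITGB1 was 11.1 to 16.5 in MHCC97L-Src and 11.9 to 14.4 in MHCC97L-Oxa, and 0.621, 11.2 and 2.65 in MHCC97L replicates 1, 2 and 3. The ratio of ITGB5 to ITGAV was 72.6 to 88.0 in MHCC97L-Src and 38.1 to 87.5 in MHCC97L-Oxa, and 2.18, 44.3 and 7.94 in MHCC97L. For ITGB4 to ITGA6, the chains of the hemidesmosome laminin receptor, it was 3.97 to 4.93 in MHCC97L-Src and 5.79 to 7.79 in MHCC97L-Oxa. In MHCC97L it was 0.543, 6.97 and 2.76. The resistant lines overlapped for the first 2 pairs and not for ITGB4 to ITGA6, and MHCC97L replicate 1 had the lowest value of the 9 libraries for each of these 3 pairs. In each pair the transcript of the first chain has the higher GC content. It is 54.5% for ITGA5 and 40.0% for ITGB1, 54.3% for ITGB5 and 38.3% for ITGAV, and 63.7% for ITGB4 and 42.9% for ITGA6. The part of GC content in these ratios was not tested.

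The comparison of MHCC97L-Src with MHCC97L-Oxa uses none of the MHCC97L libraries. When each of the 3 comparisons was fitted on its own 6 libraries, it had the most of these genes at an adjusted p under 0.05. This order did not hold in every fit. After a correction for GC content and transcript length the 3 comparisons had equal numbers, and in a single fit of all 9 libraries this comparison had the fewest. Of the 37 genes, 31 passed edgeR's filter on low counts, 1 of them (ITGA10) through the MHCC97L-Src libraries only. By edgeR's quasi-likelihood test with Benjamini-Hochberg adjustment over 11994 genes, 12 of the 31 were lower in MHCC97L-Src than in MHCC97L-Oxa at an adjusted p under 0.05, and 0 were higher. Over all tested genes the background was 4.64% in either direction, 2.52% lower and 2.12% higher. The 12 genes were the alpha chains ITGA1, ITGA2, ITGA3, ITGA5 and ITGAV, the beta chains ITGB1, ITGB4 and ITGB5, and the focal adhesion proteins NEDD9, TLN2, FERMT2 and TNS1, which makes 8 of 15 tested chains and 4 of 16 focal adhesion proteins. The median log2 fold change was -0.55 over the tested chains, -0.08 over the focal adhesion proteins and -0.02 over all tested genes. No overlap in CPM between the libraries of the lines was seen for 17 of the 31 genes, 14 lower and 3 higher (ITGA10, BCAR1 and FERMT1) in MHCC97L-Src, where 27.6% of all tested genes did not overlap, 14.4% lower and 13.2% higher. An unadjusted edgeR p under 0.05 together with a log2 fold change beyond 1 was reached by 6 of the 31 (background 4.01%), 4 lower (ITGA1, ITGA2, ITGAV and NEDD9, background 2.52%) and 2 higher (ITGA10 and FERMT1, background 1.49%).

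**Figure D2:**
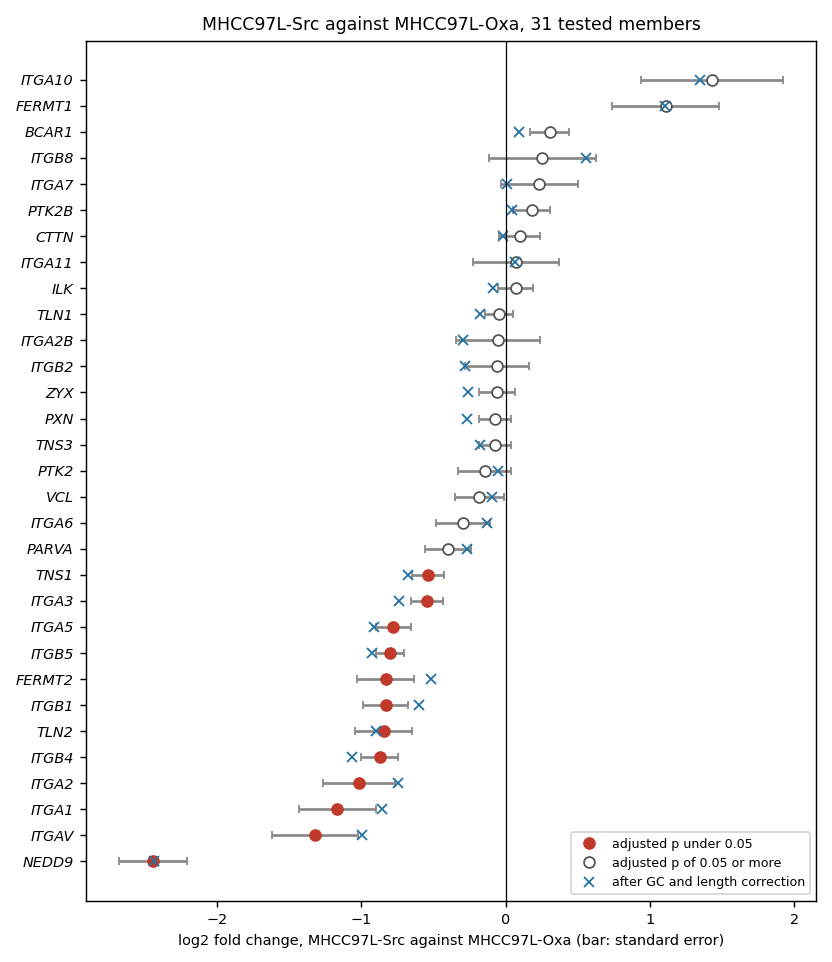
Log2 fold changes of MHCC97L-Src against MHCC97L-Oxa for the 31 tested genes, with standard errors as bars, filled where edgeR's adjusted p was under 0.05, and the values after correction for GC content and transcript length as crosses. The 12 filled points lie between -0.54 (TNS1) and -2.44 (NEDD9).

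The chains ITGA5, ITGB5, ITGB4 and ITGA3 shared one pattern across the lines. ITGA5 (chr12:54395261-54419460, - strand of GRCh38) had 8051, 12007 and 11714 counts in the MHCC97L libraries, 12902, 13678 and 11817 in those of MHCC97L-Src and 23474, 24072 and 23948 in those of MHCC97L-Oxa. The MHCC97L-Oxa libraries lay above all others, and those of MHCC97L-Src and MHCC97L overlapped. In CPM this was 595 ± 121, 741 ± 67.0 and 1327 ± 32.6 (SD, n = 3 each), and MHCC97L-Src was 1.72-fold lower than MHCC97L-Oxa (log2 fold change -0.78, standard error 0.12, edgeR adjusted p = 0.00573). ITGB5 (chr3:124761948-124901418) had 3774, 5615 and 5289 counts in the MHCC97L libraries, 5649, 5269 and 6425 in those of MHCC97L-Src and 10589, 11195 and 10734 in those of MHCC97L-Oxa. Again MHCC97L-Oxa lay above the other 6 libraries, and MHCC97L-Src was 1.74-fold lower (log2 fold change -0.80, standard error 0.10, edgeR adjusted p = 0.00144).

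ITGB4 (chr17:75721328-75757818), the beta chain of the hemidesmosome, had 1008, 1341 and 1549 counts in the MHCC97L libraries, 1605, 1652 and 1424 in those of MHCC97L-Src and 3101, 3146 and 3057 in those of MHCC97L-Oxa. MHCC97L-Src was 1.83-fold lower than MHCC97L-Oxa (log2 fold change -0.87, standard error 0.13, edgeR adjusted p = 0.00419). ITGA3 (chr17:50055968-50090481) had 6307, 9734 and 9874 counts in the MHCC97L libraries, 8898, 9263 and 8537 in those of MHCC97L-Src and 13607, 14225 and 14354 in those of MHCC97L-Oxa. It was 1.46-fold lower in MHCC97L-Src (log2 fold change -0.55, standard error 0.11, edgeR adjusted p = 0.0243). For both genes too, every MHCC97L-Oxa library was above the other 6 and the remaining lines overlapped.

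**Figure D3:**
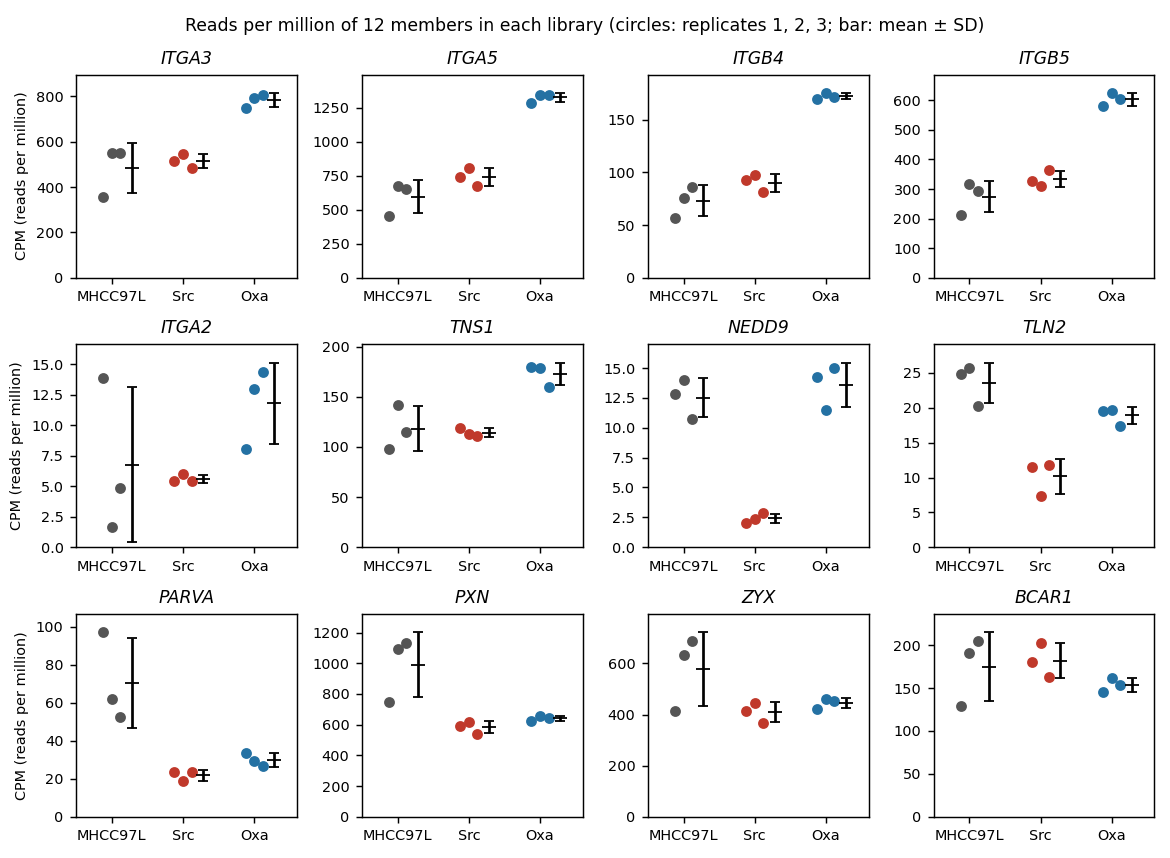
CPM of 12 of the 37 genes in each library, with a circle per replicate and the mean ± SD of 3 libraries beside it. ITGA3, ITGA5, ITGB4 and ITGB5 were highest in the 3 MHCC97L-Oxa libraries, and NEDD9 was lowest in the 3 MHCC97L-Src libraries.

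The start regions of ITGA5 and ITGB5, which moved together, of ITGB1, the partner of alpha 5, and of NEDD9, the gene with the largest difference, are shown for comparison. They were taken from RefSeq on GRCh38.p14 as the 250 bases before and 50 after the outermost listed start on the gene's strand, which for all 4 genes is the - strand, and run 5′ to 3′. Capitals mark matches on either strand to the GC box GGGCGG, the AP-1 element TGANTCA and the TEAD element GGAATG.
ITGA5, chr12:54419217-54419516: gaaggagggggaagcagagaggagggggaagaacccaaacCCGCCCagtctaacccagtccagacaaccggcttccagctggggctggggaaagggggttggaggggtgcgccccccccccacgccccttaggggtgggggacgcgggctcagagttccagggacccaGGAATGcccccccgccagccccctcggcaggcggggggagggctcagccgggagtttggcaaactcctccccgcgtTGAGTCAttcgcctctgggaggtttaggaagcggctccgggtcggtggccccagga
ITGB5, chr3:124901369-124901668: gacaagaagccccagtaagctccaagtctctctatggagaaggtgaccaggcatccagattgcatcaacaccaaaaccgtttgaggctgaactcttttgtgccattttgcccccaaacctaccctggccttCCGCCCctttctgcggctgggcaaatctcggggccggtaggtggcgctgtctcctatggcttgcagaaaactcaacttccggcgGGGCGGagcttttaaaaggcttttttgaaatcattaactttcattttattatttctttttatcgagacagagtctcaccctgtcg
ITGB1, chr10:32958181-32958480: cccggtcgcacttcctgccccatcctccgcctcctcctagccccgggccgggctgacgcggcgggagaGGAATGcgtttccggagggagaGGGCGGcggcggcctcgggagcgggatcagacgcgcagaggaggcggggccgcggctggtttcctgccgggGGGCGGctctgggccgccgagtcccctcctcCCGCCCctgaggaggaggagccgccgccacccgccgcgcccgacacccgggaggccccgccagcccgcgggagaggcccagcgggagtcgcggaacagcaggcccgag
NEDD9, chr6:11382299-11382598: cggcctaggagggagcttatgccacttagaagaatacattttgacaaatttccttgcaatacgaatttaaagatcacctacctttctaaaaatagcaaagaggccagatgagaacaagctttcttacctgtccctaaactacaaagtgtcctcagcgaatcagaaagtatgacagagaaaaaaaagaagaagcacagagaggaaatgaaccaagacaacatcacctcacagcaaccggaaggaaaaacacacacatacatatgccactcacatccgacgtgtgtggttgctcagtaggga
The ITGA5 window held 1 GC box, 1 AP-1 element and 1 TEAD element, that of ITGB5 held 2 GC boxes, and that of ITGB1 held 3 GC boxes and 1 TEAD element. None of these elements occurred in the printed window of NEDD9, but a GC box was found among its windows that are not printed. RefSeq windows were matched for 26 of the 37 genes, with 44 starts in all, and several genes have more than 1 start, of which only the outermost is printed (3 starts are listed for NEDD9 and ITGB5, 2 for ITGB1 and 1 for ITGA5). The GC box was found in 25 of the 44 windows and in 44.95% of 35116 windows of all genes. The AP-1 element was found in 2 of the 44 and 7.71% of all windows, and the TEAD element in 7 of the 44 and 14.0%. A CCAAT box was found in 8 of the 44 and 34.6%, and a CArG box in 1 and 1.29%. A match is a string of letters only, and binding was not measured.

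The other 4 chains of the 12 genes varied more between the MHCC97L libraries. ITGB1 (chr10:32900319-33005792) had 8911, 728 and 2847 counts in the MHCC97L libraries, 752, 541 and 722 in those of MHCC97L-Src and 1091, 1313 and 1441 in those of MHCC97L-Oxa. It was lower in every MHCC97L-Src library than in any MHCC97L-Oxa library, by 1.78-fold (log2 fold change -0.83, standard error 0.15, edgeR adjusted p = 0.0131). ITGAV (chr2:186590065-186680901), the alpha chain of vitronectin receptors, had 2010, 144 and 740 counts in the MHCC97L libraries, 86, 88 and 90 in those of MHCC97L-Src and 139, 250 and 322 in those of MHCC97L-Oxa. It was 2.5-fold lower in MHCC97L-Src than in MHCC97L-Oxa (log2 fold change -1.32, standard error 0.30, edgeR adjusted p = 0.0343). Both genes had their highest value in MHCC97L replicate 1, and the MHCC97L libraries spanned more than those of both resistant lines together.

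ITGA1 and ITGA2 are the alpha chains of collagen receptors and lie next to each other on chromosome 5 (chr5:52787896-52959210 and chr5:52989326-53094779). ITGA1 had 1028, 142 and 755 counts in the MHCC97L libraries, 220, 162 and 131 in those of MHCC97L-Src and 299, 419 and 527 in those of MHCC97L-Oxa, and was 2.25-fold lower in MHCC97L-Src than in MHCC97L-Oxa (log2 fold change -1.17, standard error 0.27, edgeR adjusted p = 0.0361). ITGA2 had 245, 29 and 87 counts in the MHCC97L libraries, 94, 102 and 95 in those of MHCC97L-Src and 147, 233 and 256 in those of MHCC97L-Oxa, and was 2.02-fold lower in MHCC97L-Src than in MHCC97L-Oxa (log2 fold change -1.02, standard error 0.25, edgeR adjusted p = 0.0488). The libraries of the resistant lines did not overlap for either gene, and the lowest MHCC97L library lay within or below the range of MHCC97L-Src, the highest within or above that of MHCC97L-Oxa.

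Among the SRC substrate scaffolds, NEDD9 stood out. NEDD9 (chr6:11183298-11382348), a p130Cas relative that docks SRC and focal adhesion kinase, had 227, 248 and 193 counts in the MHCC97L libraries, 35, 40 and 50 in those of MHCC97L-Src and 260, 206 and 267 in those of MHCC97L-Oxa. In CPM this was 12.5 ± 1.64, 2.41 ± 0.414 and 13.6 ± 1.86 (SD, n = 3 each). The MHCC97L-Src libraries lay below the other 6, which overlapped. NEDD9 was 5.44-fold lower in MHCC97L-Src than in MHCC97L-Oxa (log2 fold change -2.44, standard error 0.23, edgeR adjusted p = 0.000348), and kept this value after correction for GC content and transcript length. Its relative BCAR1 had 2278, 3394 and 3677 counts in the MHCC97L libraries, 3132, 3437 and 2859 in those of MHCC97L-Src and 2653, 2907 and 2731 in those of MHCC97L-Oxa. Its difference between the resistant lines was 0.30 (standard error 0.13, edgeR adjusted p = 0.242).

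PXN, the scaffold on which SRC and focal adhesion kinase sites gather, had 13203, 19366 and 20406 counts in the MHCC97L libraries, 10299, 10472 and 9511 in those of MHCC97L-Src and 11375, 11783 and 11385 in those of MHCC97L-Oxa. The MHCC97L libraries lay above the other 6, and the resistant lines differed by -0.07 (standard error 0.11, edgeR adjusted p = 0.764). CTTN, an actin branching protein, had 4720, 4078 and 3242 counts in the MHCC97L libraries, 2974, 2101 and 3431 in those of MHCC97L-Src and 3148, 2799 and 2543 in those of MHCC97L-Oxa, with a log2 fold change between the resistant lines of 0.10 (standard error 0.14, edgeR adjusted p = 0.752). PTK2, the kinase that opens SRC signalling at integrins, had 1106, 207 and 292 counts in the MHCC97L libraries, 221, 179 and 227 in those of MHCC97L-Src and 225, 293 and 228 in those of MHCC97L-Oxa. The resistant lines overlapped for CTTN and PTK2, and for PTK2 the difference was -0.15 (standard error 0.18, edgeR adjusted p = 0.704).

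Of the proteins that activate integrins or tie them to actin, TLN2, FERMT2 and TNS1 were lower in MHCC97L-Src than in MHCC97L-Oxa. TLN2, the less abundant talin, had 438, 456 and 365 counts in the MHCC97L libraries, 199, 124 and 207 in those of MHCC97L-Src and 357, 352 and 310 in those of MHCC97L-Oxa. It was 1.80-fold lower in MHCC97L-Src (log2 fold change -0.85, standard error 0.20, edgeR adjusted p = 0.0384), and its MHCC97L-Src libraries lay below the other 6. FERMT2, a kindlin, had 2978, 267 and 1019 counts in the MHCC97L libraries, 170, 131 and 182 in those of MHCC97L-Src and 244, 337 and 341 in those of MHCC97L-Oxa. It was 1.78-fold lower in MHCC97L-Src (log2 fold change -0.83, standard error 0.20, edgeR adjusted p = 0.0447), and the 3 lines separated only between the resistant ones and between MHCC97L-Src and MHCC97L. TNS1, a tensin, had 1734, 2519 and 2064 counts in the MHCC97L libraries, 2064, 1918 and 1949 in those of MHCC97L-Src and 3280, 3199 and 2841 in those of MHCC97L-Oxa, and was 1.45-fold lower in MHCC97L-Src (log2 fold change -0.54, standard error 0.11, edgeR adjusted p = 0.0220). The main talin TLN1 differed by -0.05 (standard error 0.10, edgeR adjusted p = 0.837) and ILK by 0.07 (standard error 0.12, edgeR adjusted p = 0.803).

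How many of the 31 genes passed depended on single libraries and on the fit. In 1 fit of all 9 libraries, which includes those of MHCC97L, only NEDD9 passed edgeR's test. Without MHCC97L-Src replicate 1, MHCC97L-Oxa replicate 2 or MHCC97L-Oxa replicate 3 the number was 4 each, without MHCC97L-Oxa replicate 1 it was 8, and without MHCC97L-Src replicates 2 or 3 it was 12 and 13, the latter with BCAR1. NEDD9, ITGB4 and ITGB5 passed in 6 of these 6 fits (largest edgeR adjusted p 0.00333, 0.0374 and 0.0249), ITGA5 in 5 and ITGB1 in 4, and the other 7 genes in 2 or 3. The log2 fold changes of the 12 genes kept their sign in every one of these fits. After correction for GC content and transcript length 10 of the 12 passed, where 6.95% of all tested genes did and 4.58% were lower, and ITGA2 (-0.75, edgeR adjusted p = 0.0641) and FERMT2 (-0.52, edgeR adjusted p = 0.0780) did not.

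Against MHCC97L, MHCC97L-Src was lower for 2 of 32 tested genes at an adjusted p under 0.05, NEDD9 and PARVA, where the background over 12037 genes was 2.13% in either direction, 1.43% higher and 0.698% lower. ITGA10, ITGA11 and ITGB3 passed the filter through 1 line only. NEDD9 was 4.96-fold lower than in MHCC97L (log2 fold change -2.31, standard error 0.41, edgeR adjusted p = 0.0303). PARVA (chr11:12377185-12535356), the parvin that joins ILK to actin, had 1715, 1099 and 942 counts in the MHCC97L libraries, 404, 315 and 415 in those of MHCC97L-Src and 614, 522 and 472 in those of MHCC97L-Oxa. The MHCC97L libraries lay above the other 6, and MHCC97L-Src was 3.05-fold lower (log2 fold change -1.61, standard error 0.29, edgeR adjusted p = 0.0327). Without MHCC97L replicate 1 both genes passed (-2.31, edgeR adjusted p = 0.00889, and -1.34, edgeR adjusted p = 0.00864). Leaving out MHCC97L replicate 3 or any single MHCC97L-Src library, 0 of the 32 genes passed, and the largest adjusted p in these fits was 0.190 for NEDD9 and 0.168 for PARVA. The median log2 fold change was -0.26 over the 32 genes and -0.16 over all tested genes.

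At an unadjusted edgeR p under 0.05 with a log2 fold change beyond 1, 11 of the 32 genes differed between MHCC97L-Src and MHCC97L, against 24.6% of all tested genes. The 3 higher ones were ITGA7, ITGA11 and ITGA2B (background 5.74%), and the 8 lower ones were ITGA1, ITGAV, ITGB1, ITGB3, NEDD9, TLN2, FERMT2 and PARVA (background 18.9%). Libraries did not overlap in CPM for 5 higher and 8 lower genes, with backgrounds of 18.3% and 12.2%, or 30.5% in all. With 3 libraries per line, an exact permutation test of a single gene cannot give a p below 0.1.

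Against the same MHCC97L libraries, edgeR's quasi-likelihood test passed 0 of 31 tested genes in MHCC97L-Oxa at an adjusted p under 0.05, with a background over 12064 genes of 0.953% in either direction, 0.771% higher and 0.182% lower. Of the 31, 15 had an unadjusted p under 0.05 (background 22.4%), and DESeq2's Wald test gave 8 with an adjusted p under 0.05 (background 6.14%). ITGA11 and ITGB3 passed the filter through 1 line only. Combining the unadjusted threshold with a log2 fold change beyond 1 left 11 genes (background 16.2%), which were ITGA5, ITGA7, ITGA11, ITGA2B, ITGB4 and ITGB5, which were higher (background 4.63%), and ITGAV, ITGB1, FERMT1, FERMT2 and PARVA, which were lower (background 11.5%). ITGA5, ITGB4 and ITGB5 had log2 fold changes of 1.16, 1.25 and 1.14 with edgeR adjusted p-values of 0.0733, 0.0574 and 0.0695, and ITGA3 one of 0.69 (edgeR adjusted p = 0.201). In CPM the MHCC97L-Oxa libraries did not overlap those of MHCC97L for 9 genes that were higher and 5 that were lower, with backgrounds of 19.1% and 10.5%, or 29.5% in all.

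These values turned on the MHCC97L libraries. Without MHCC97L replicate 1, 13 of the 31 genes passed in MHCC97L-Oxa, 9 higher and 4 lower, where 18.5% of all tested genes did (11.9% higher and 6.6% lower), and ITGA5 (1.05, edgeR adjusted p = 0.000823), ITGB4 (1.15, edgeR adjusted p = 0.000912), ITGB5 (1.04, edgeR adjusted p = 0.00113) and ITGA3 (0.57, edgeR adjusted p = 0.00451) were among them. Without MHCC97L replicate 2, 11 passed (the share over all genes is not given here), and without any other library of this comparison none did. With 2 MHCC97L libraries left, the number in MHCC97L-Src was 5 without replicate 1 (1 higher and 4 lower, background 5.52%, 3.58% and 1.94%) and 10 without replicate 2. For both resistant lines, leaving out replicate 2 also let more of all tested genes pass than leaving out replicate 1. The median log2 fold change of all genes was -0.19 in MHCC97L-Oxa with all libraries and 0.00 without MHCC97L replicate 1, and -0.16 and -0.04 in MHCC97L-Src.

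**Figure D4:**
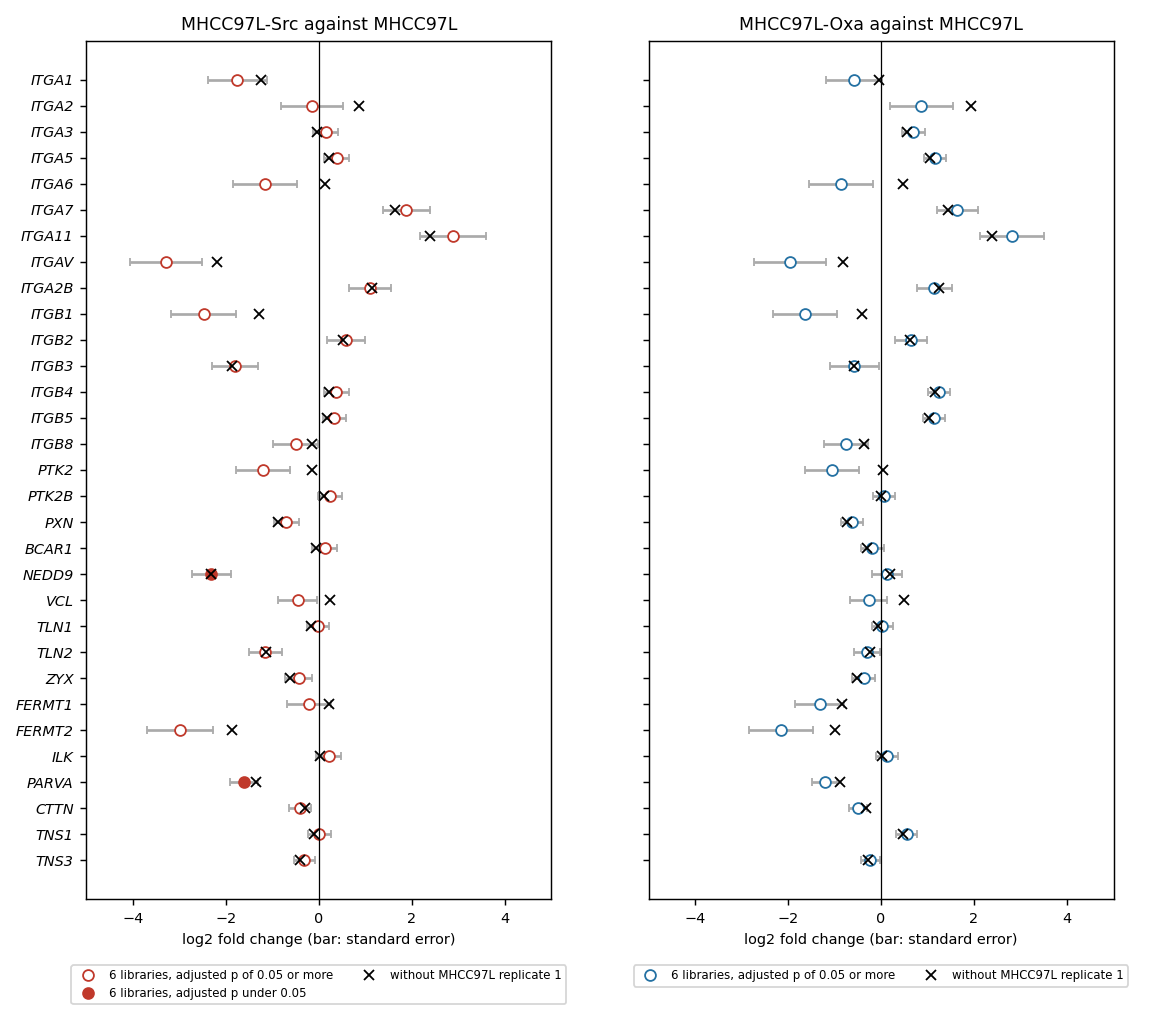
Log2 fold changes of MHCC97L-Src (left) and MHCC97L-Oxa (right) against MHCC97L for the 31 genes tested in both comparisons, with standard errors as bars, filled where edgeR's adjusted p was under 0.05, and crosses for the values without MHCC97L replicate 1. NEDD9 and PARVA on the left are the filled points, and ITGA2, ITGA6, ITGAV, ITGB1, PTK2 and FERMT2 moved furthest when that replicate was left out.

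The genes that moved furthest with MHCC97L replicate 1 (ITGA2, ITGA6, ITGAV, ITGB1, PTK2 and FERMT2) were of low GC content. Not every gene of low GC content moved as far. VCL, whose GC content of 45.1% lies just over the limit used here, moved more than ITGA1, ITGB8 and PARVA in both comparisons with MHCC97L. Of 31 genes with a GC content, tested in both comparisons with MHCC97L, 9 lay under 45%, a limit chosen after the values were seen: ITGA1, ITGA2, ITGA6, ITGAV, ITGB1, ITGB8, PTK2, FERMT2 and PARVA. MHCC97L replicate 1 was the highest of the 9 libraries for 8 of these 9 and for 3 of the 22 others. Its log2 CPM exceeded the mean of the other MHCC97L replicates by a median of 2.25 in the 9 genes, and was lower by a median difference of -0.43 in the 22 others. Across the 31 genes, Spearman's rho between GC content and the same difference came to -0.774 in MHCC97L replicate 1 and -0.388 in its replicate 3, and ranged from 0.0802 to 0.645 in the other 7 libraries. The genes of a library share its depth and preparation, so this is a description.

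**Figure D5:**
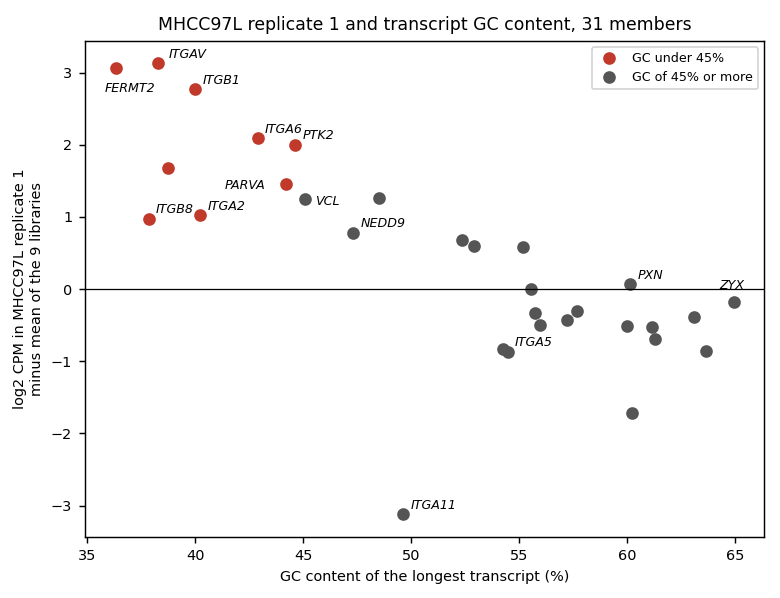
Difference between log2 CPM in MHCC97L replicate 1 and the mean over the 9 libraries (vertical axis) against GC content of the longest transcript (horizontal axis, %) for 31 genes. The 9 genes under 45% GC, in red, all lie above 0, and ITGAV and FERMT2 are the highest.

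With a correction of each library for GC content and transcript length, the median log2 fold change of the 9 genes went from -1.61 to -0.46 for MHCC97L-Src, and for MHCC97L-Oxa from -1.05 to -0.45. Between the resistant lines it changed from -0.83 to -0.52. After the correction 10 of the 32 genes passed in MHCC97L-Src against MHCC97L (background 9.05%), ITGA7 and ITGA11 higher (background 3.4%) and ITGAV, ITGB3, PXN, NEDD9, TLN2, ZYX, FERMT2 and PARVA lower (background 5.65%). In MHCC97L-Oxa 10 of 31 passed (background 13.9%), ITGA2, ITGA3, ITGA5, ITGA7, ITGA11, ITGB4 and ITGB5 higher (background 4.43%) and PXN, BCAR1 and ZYX lower (background 9.48%). Of the genes counted here, ITGA11 in both comparisons and ITGB3 in MHCC97L-Src had passed the filter on low counts through 1 line only. PXN was then lower in both resistant lines (-1.12, edgeR adjusted p = 0.00297, and -0.90, edgeR adjusted p = 0.00352) against uncorrected values of -0.70 (edgeR adjusted p = 0.139) and -0.63 (edgeR adjusted p = 0.208). ITGA1 in MHCC97L-Oxa changed sign from -0.59 to 0.40, and neither value passed (edgeR adjusted p = 0.540 and 0.347).

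In the main edgeR fits (6 libraries, no GC and length correction), the remaining chains had no adjusted p under 0.05 in any comparison. Against MHCC97L, DESeq2's Wald test gave ITGA7 adjusted p-values of 0.00364 in MHCC97L-Src and 0.00879 in MHCC97L-Oxa. For ITGA11 it gave 0.00179 and 0.00353, and for ITGA2B 0.0472 in MHCC97L-Oxa. ITGA7, a laminin receptor chain of muscle, had 16, 31 and 32 counts in the MHCC97L libraries, 99, 102 and 69 in those of MHCC97L-Src and 97, 83 and 70 in those of MHCC97L-Oxa, and ITGA11, a collagen receptor chain, had 1, 11 and 8, then 58, 44 and 40, and 56, 55 and 35. Every resistant library was above every MHCC97L library for both genes, with edgeR adjusted p-values of 0.0903 and 0.0807 for MHCC97L-Src, and of 0.146 and 0.115 for MHCC97L-Oxa. Of all tested genes, 18.3% lay above MHCC97L without overlap in CPM in MHCC97L-Src and 19.1% in MHCC97L-Oxa. ITGA11 passed the filter on low counts through the resistant libraries only. ITGA2B, the platelet chain, had 31, 31 and 23 counts in the MHCC97L libraries, 49, 72 and 45 in those of MHCC97L-Src and 66, 65 and 57 in those of MHCC97L-Oxa. ITGB3, its usual partner, had 16 to 26 counts in MHCC97L, 4 to 7 in MHCC97L-Src and 6 to 20 in MHCC97L-Oxa. ITGB2, the chain of leukocyte integrins, had 112 to 135, 141 to 209 and 182 to 209 counts in the same order, and ITGB8 had 12 to 39 over all libraries. ITGA6, the partner of ITGB4, had 1186, 117 and 313 counts in the MHCC97L libraries, 197 to 245 in those of MHCC97L-Src and 245 to 332 in those of MHCC97L-Oxa.

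In the main edgeR fits, before the GC and length correction, the focal adhesion proteins not described so far had no adjusted p under 0.05. VCL had 8942, 3062 and 2813 counts in the MHCC97L libraries, 2354 to 4399 in those of MHCC97L-Src and 3420 to 4486 in those of MHCC97L-Oxa. ZYX had 7305, 11253 and 12337 counts in the MHCC97L libraries, 6443 to 7562 in those of MHCC97L-Src and 7682 to 8258 in those of MHCC97L-Oxa. FERMT1, an epithelial kindlin, had 61 to 150 counts in MHCC97L, 53 to 98 in MHCC97L-Src and 18 to 51 in MHCC97L-Oxa, and PTK2B, TNS3 and ILK had log2 fold changes between -0.31 and 0.24 in all 3 comparisons. Exons of genes on the opposite strand overlap those of ILK (TAF10), ITGA7 (BLOC1S1 and METTL7B), ITGB7 (ZNF740), TLN1 (CREB3), VCL (AP3M1) and ZYX (EPHA1), and antisense genes overlap ITGA5, ITGB1, ITGAV, NEDD9, FERMT2, TLN2, TNS1 and PXN. ITGA1 shares exon sequence with PELO on its own strand. Whether the counting used strand is not given in the sources used here, so the reads of such neighbours cannot be told apart.

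Around these genes, a list of 80 further genes of the same pathway was looked at, of which 72 were tested in each comparison. Between the resistant lines 9 of the 72 were lower in MHCC97L-Src and 3 higher at an edgeR adjusted p under 0.05, against the backgrounds of 2.52% and 2.12%. Of the 13 tested integrin ligands, 5 were lower (FN1, THBS1, TNC, COL4A1 and LAMB3) and 0 higher. FN1, the fibronectin bound by alpha 5 beta 1, had 8991, 5894 and 6152 counts in the MHCC97L libraries, 2976, 2629 and 2872 in those of MHCC97L-Src and 15711, 18094 and 14849 in those of MHCC97L-Oxa, and the 3 lines did not overlap. It was lower in MHCC97L-Src than in MHCC97L-Oxa by a log2 difference of -2.41 (standard error 0.11, edgeR adjusted p = 4.84e-06), fell against MHCC97L in MHCC97L-Src (-1.19, edgeR adjusted p = 0.0364, and -0.46, edgeR adjusted p = 0.325, after the GC and length correction) and rose in MHCC97L-Oxa (1.22, edgeR adjusted p = 0.0428). TNC, the matrix protein tenascin C, rose in MHCC97L-Oxa (2.28, edgeR adjusted p = 0.0271), and THBS1, thrombospondin 1, fell in MHCC97L-Src (-2.28, edgeR adjusted p = 0.0226).

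None of the 8 kinases and phosphatases of that list was lower and 1 was higher in MHCC97L-Src than in MHCC97L-Oxa. FYN, a SRC family kinase, had 259, 194 and 157 counts in the MHCC97L libraries, 719, 550 and 882 in those of MHCC97L-Src and 423, 390 and 365 in those of MHCC97L-Oxa, with no overlap between the lines. It rose in MHCC97L-Src (log2 fold change 1.92, standard error 0.33, edgeR adjusted p = 0.0245) and was 0.96 above MHCC97L-Oxa (standard error 0.16, edgeR adjusted p = 0.00836). None of 21 adaptors and switches passed, and CSRP1, a LIM protein that binds actin bundles, was higher. Among 16 relatives of kindlin, ILK, tensin and paxillin, LIMS1 and LIMS2, which bind ILK, and the caveolar protein CAV1 were lower, and TNS2, a tensin, was higher (0.72, standard error 0.12, edgeR adjusted p = 0.00726). Against MHCC97L, 4 of the 72 passed in MHCC97L-Src (FYN and TNS2 higher, FN1 and THBS1 lower, background 2.13%) and 2 in MHCC97L-Oxa (FN1 and TNC higher, background 0.953%). Leaving out MHCC97L replicate 3 or any single library of the resistant line, 0 of the 72 passed in either comparison with MHCC97L. Without MHCC97L replicate 1 it was 12 for MHCC97L-Src (background 5.52%) and 18 for MHCC97L-Oxa (background 18.5%). Without replicate 2 it was 21 and 14, and more of all tested genes passed than without replicate 1 in both comparisons. Between the resistant lines the 12 became 6 without MHCC97L-Oxa replicate 1 or 3 or MHCC97L-Src replicate 1, 3 without MHCC97L-Oxa replicate 2, and 18 without MHCC97L-Src replicate 2 or 3, and 2 in the fit of all 9 libraries. The median log2 fold change of the 72 between the resistant lines was -0.15.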

How the data were processed

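Gene counts and FPKM values of 9 libraries were used as the authors deposited them, in 1 table of read counts per gene and 1 of FPKM per gene. Per the labels, RNA was prepared with a stranded poly(A) mRNA kit and sequenced as read pairs on Illumina instruments, and the submitters' processing notes name Trimmomatic 0.36, HISAT2 2.2.1.0 and GRCh38.p12, while the counting program and its strand setting are not given in the sources used here. Totals of 16970486 to 18209213 counts per library limit the precision of genes with few counts, and the floor of 3 counts covers counting error only, since reads carry no molecular identifiers.

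Counts were analysed in R 4.3.3 with edgeR 4.0.16 (filterByExpr with a minimum count of 10, TMM scaling, quasi-likelihood test, Benjamini-Hochberg adjustment over all tested genes) in 3 comparisons of 6 libraries each, each resistant line with MHCC97L and the resistant lines with each other. Both comparisons with MHCC97L share its libraries. The standard error of a log2 fold change was its size over the square root of F. Calls were made at an adjusted p under 0.05, or by size, with a log2 fold change beyond 1 in either direction and p under 0.05 before adjustment. The members and gene lists were chosen with earlier results of these data known. The members given with full values were those with an adjusted p under 0.05 in any comparison, with ITGB1, PTK2, PXN, BCAR1 and CTTN whatever their values. Of the 80 pathway genes, values could be given for those past this threshold against MHCC97L or with the 3 smallest adjusted p-values of their role between the resistant lines. Only some of these pathway genes are given with values, and fewer with counts. Values of other members are given in ranges or as counts, and other pathway genes are named only where they make up a count of 5 or fewer. A single gene of the pathway list, included in its counts, is not reported by name.

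Alternatives were DESeq2 1.42.0, its size factors or total counts for scaling, 1 fit of all 9 libraries, other filters, limma 3.58.1 on log2(FPKM + 1) and log2(FPKM + 0.1), offsets for GC content and transcript length (splines with 5 degrees of freedom, longest transcript of GENCODE 29 on GRCh38, matched for 19343 of 20030 genes), the replicate number as a block, and leaving out each library. Gene coordinates are those of GENCODE 29. The GC limit of 45% was chosen after seeing the data. The edgeR scripts were tested on simulated data with the same dispersion for all genes and no deviation of a library with GC content. That test therefore does not cover the spread among the MHCC97L libraries. Saracatinib-resistant lines from other parental cells are not analysed here.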

Additional observations from a re-analysis of the deposited data

Results flagged for a closer look

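ITGA10, the alpha chain of a cartilage collagen receptor, drew attention because every MHCC97L-Src library lay above and every MHCC97L-Oxa library below the MHCC97L libraries in CPM. Its counts were 10, 9 and 8 in the MHCC97L libraries, 19, 10 and 17 in those of MHCC97L-Src and 8, 3 and 7 in those of MHCC97L-Oxa, and it passed the filter on low counts only through MHCC97L-Src. The difference between the resistant lines, tested directly, was 1.43 on the log2 scale with an edgeR adjusted p of 0.142 and did not pass. Groups of 3 libraries are too small for the rule on single deviating libraries, which was applied to none.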

How the results depend on the processing

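Of the recomputed values of the named genes, 681 kept their direction and their side of the threshold, 80 passed it newly, 79 no longer passed it and 27 changed sign. Of the counts in the list of pathway genes, 63 stayed within 1.5 times and 39 did not. Calls against MHCC97L were the least stable, and depth limits chains with few counts. Where values moved, the cause was not tested.

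In MHCC97L-Src against MHCC97L, the 2 genes with an adjusted p under 0.05 became 9 with DESeq2 and with the fit of all 9 libraries, 4 with its size factors, 10 with the GC and length correction, 1 with limma on log2(FPKM + 1), 6 without a filter, and 0 to 10 with 1 library left out. The 11 genes by unadjusted p and fold became 6 and 3 with limma at pseudocounts of 0.1 and 1. In MHCC97L-Oxa against MHCC97L, 0 (background 0.953%) became 8 with DESeq2 (6.14%), 1 with its size factors and 10 with the GC and length correction (13.9%). It was 5 with all 9 libraries, 3 with limma at either pseudocount, 1 without a filter and 3 with total counts. With 1 library left out it was 0 to 13, the 13 without MHCC97L replicate 1 (background 18.5%). By unadjusted p and fold the 11 became 4 with the correction, 3 with limma on log2(FPKM + 1) and 7 to 13 with 1 library left out. Between the resistant lines 12 (background 4.64%) became 1 with all 9 libraries, 7 with limma at either pseudocount and 4 to 13 with 1 library left out. The 6 genes by unadjusted p and fold (background 4.01%) became 3 and 0 with limma and 3 to 6 with 1 library left out. Where no share over all genes stands beside a number, it is not given here.

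Members outside the named genes are not listed here, and some of them changed sign. For VCL in MHCC97L-Oxa against MHCC97L, -0.27 became 0.49 without MHCC97L replicate 1 (edgeR adjusted p = 0.0359). Among the named genes, changes of sign were seen only where the value in the main edgeR fit had not passed. In MHCC97L-Src against MHCC97L they were ITGA2 (1.18 with the correction, 0.14 on log2(FPKM + 0.1), -0.53 to 0.87 with 1 library left out), ITGA3 (-0.29, and -0.030 to 0.34), ITGB4 (-0.089), BCAR1 (-0.37, and -0.055 to 0.28) and TNS1 (-0.30, -0.046 on log2(FPKM + 0.1), -0.0405 on log2(FPKM + 1), -0.050 with total counts, and -0.11 to 0.26). In MHCC97L-Oxa against MHCC97L they were ITGA1 (0.40 with the correction) and PTK2 (-1.34 to 0.045 with 1 library left out), and between the resistant lines PXN (-0.18 to 0.031 with 1 library left out) and CTTN (-0.017 with the correction).

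The replicate numbers were not taken to pair the libraries, since libraries with the same number did not deviate together in every pair (correlations of -0.651 to 0.443). With the replicate number as a block, 6 genes passed in MHCC97L-Src against MHCC97L and 7 between the resistant lines. With the block and the correction together 7 passed in MHCC97L-Oxa against MHCC97L, 4 by unadjusted p and fold, and 6 between the resistant lines. The sign of ITGA2 changed with the block (0.26), and with block and correction those of ITGA2 (1.21), ITGA3 (-0.29), ITGB4 (-0.10), BCAR1 (-0.38), TNS1 (-0.30), ITGA1 in MHCC97L-Oxa (0.46) and CTTN (-0.0525).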
